A study of Homo sapiens with 24 samples.

Results

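The comparison described here is the step from 4 d to 6 d in a time course of oncogenic RAS in human fibroblasts: the 3 arrays taken after 6 d against the 3 arrays taken after 4 d, matched by their batch letter, over all genes. These are 6 of the 24 arrays of the study. The cells were IMR90 human fetal lung fibroblasts. All of them, the 0 h control included, expressed ER:RAS-G12V, an oncogenic RAS protein coupled to the estrogen receptor. This protein is switched on by 4-hydroxytamoxifen (4-OHT). Cells of both groups were kept in 100 nM 4-OHT, for 4 d or for 6 d, and each group had 1 array from each of the biological replicate batches A, B and D. Every batch was also sampled at 0, 2, 8 and 24 h and at 2 and 8 d. Cells without the construct, or untreated at 4 d or 6 d, were not analysed here, so days in culture and days of RAS activity cannot be told apart. Per the labels, cells had been passaged on the day before harvest.

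Sustained RAS signalling in normal fibroblasts ends in oncogene-induced senescence, a state in which cells first divide and then stop for good while remaining metabolically active. Senescent cells secrete a mixture of cytokines, chemokines, proteases and protease inhibitors, the senescence-associated secretory phenotype, and its inflammatory arm is driven by the transcription factors NF-kB and C/EBP beta and fed by interleukin-1. CCL20 and CXCL5, which had been given as markers of the step, are chemokines of that arm: CCL20 attracts cells bearing the receptor CCR6, and CXCL5 attracts neutrophils through CXCR2.

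Arrays held log2 intensities of 48701 probes, of which 16001 were above background on at least 3 of the 24 arrays and named 10967 tested genes. Between 26.6% and 29.9% of probes were above background on each array. All 10 fibroblast markers examined were above background on all 6 arrays. Of 13 epithelial markers 11 were above background on 0 of the 6 arrays, as were 11 of the 12 immune markers with a probe (CD68 was the exception) and 3 of 10 endothelial markers. Summed linear intensities of the epithelial list were 1311 to 1608 at 4 d and 1343 to 1436 at 6 d, those of the endothelial list 1084 to 1363 and 1202 to 1345, and those of the immune list 2249 to 2768 and 2617 to 2995. At 4 d the array of batch B stood apart from the others: the median absolute log2 difference was 0.177 between A and B and 0.193 between B and D. Between A and D it was 0.112, within the range of 0.0885 to 0.148 between arrays at 6 d. On the first principal component of all 24 arrays, the 4 d array of batch B (41.55) lay among the 6 d arrays (36.9 to 44.22), and those of batches A (30.12) and D (22.49) lay below them. For most lists the counts without single arrays are therefore given as well. The probe of HRAS, a gene of the RAS family, gave 9.05, 9.19 and 9.27 at 4 d and 9.34, 9.28 and 9.24 at 6 d (log2 intensity, batches A, B and D in that order here and below), and its change of 0.12 ± 0.13 was not called (adjusted p = 0.639); the files do not say whether that probe reads the construct.

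At 6 d, 627 genes were higher and 490 lower than at 4 d, by limma's moderated test on all 24 arrays with the batch letter as a block and Benjamini-Hochberg adjustment at 0.05. These are 5.72% and 4.47% of the genes tested, 10.2% together. Every count of list members below that comes from this fit is to be read beside them. A count from another setting is to be read beside the number of genes called in that setting. Only 67 genes changed at least 2-fold, 29 up and 38 down, so most called changes were small, and 1088 of the 1117 called genes moved the same way in all 3 pairs of arrays. The share of called genes that rose was 56.1% and depended on scaling: arrays centred on their median without quantile normalization gave 51 higher and 181 lower genes, of which 22.0% rose. That centring also ended the calls of many genes described below as rising, as stated beside most of them. The 6 d arrays lay above all 4 d arrays for 1482 genes (13.5%) and below all of them for 1280 (11.7%). Standard errors come from the spread over all 24 arrays and not from these 6 alone. A fit to the 6 arrays called 170 genes higher and 211 lower. Leaving out all of batch A gave 60 higher and 72 lower, batch B 211 and 214, and batch D 927 and 738. Leaving out 1 of the 6 arrays gave 267 to 652 higher and 265 to 505 lower. Without batch A many genes named below were no longer called, which is stated beside some of them only.

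**Figure D1:**
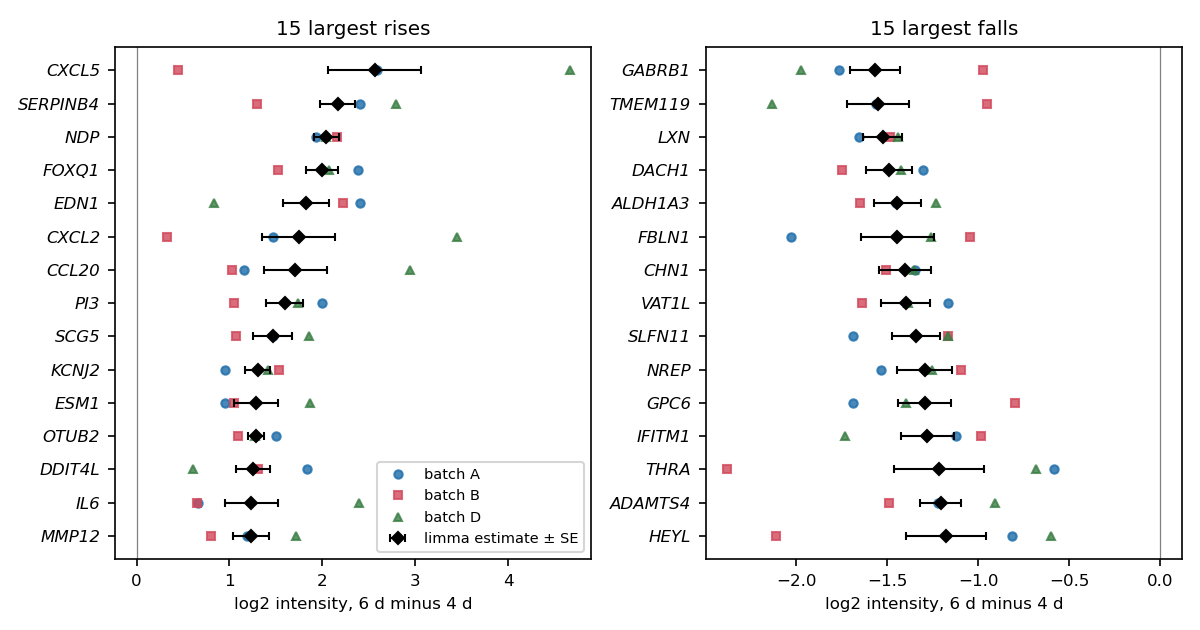
The 15 genes with the largest called rises (left) and falls (right) among those that moved the same way in all 3 batches; the x axis is the difference in log2 intensity, 6 d minus 4 d, with 1 point for each batch and a diamond with bars for the limma estimate ± SE. Points of CXCL5, CXCL2, CCL20 and IL6 are spread far apart, with batch D highest, while those of NDP, OTUB2, LXN and CHN1 lie close together.

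CXCL5 had the largest called rise of all genes. Its probe read 9.15, 11.45 and 7.38 at 4 d and 11.74, 11.89 and 12.04 at 6 d. All 3 arrays at 6 d were near 12, whereas at 4 d batch B was already close to that level and batch D was far below it. The limma estimate was 2.56 ± 0.50 (SE) on the log2 scale, a 5.91-fold rise (adjusted p = 0.00205), with single pairs of 2.59, 0.44 and 4.66. CXCL2, another neutrophil-attracting chemokine of the same gene cluster, read 9.22, 10.14 and 7.29 at 4 d and 10.68, 10.46 and 10.74 at 6 d and rose by 1.75 ± 0.39 (adjusted p = 0.00626). CCL20 read 10.25, 10.47 and 8.29 at 4 d and 11.41, 11.5 and 11.24 at 6 d and rose by 1.71 ± 0.34, or 3.27-fold (adjusted p = 0.00247). For all of these chemokines the groups did not overlap, and the 4 d array of batch D was the lowest. CXCL5 and CXCL2 were above background on 9 of the 24 arrays and CCL20 on 10, yet all 24 enter their standard errors. The standard deviation of the 4 d arrays alone was 2.04 for CXCL5, 1.46 for CXCL2 and 1.20 for CCL20. Without that array the rises were 1.58 for CXCL5, 0.94 for CXCL2 and 1.01 for CCL20, all still called. In a fit to the 6 arrays alone CXCL5 and CXCL2 missed the threshold (adjusted p = 0.0542 and 0.0773). Without all arrays of batch A, CXCL5, CXCL2 and CCL20 missed it as well (adjusted p = 0.123, 0.138 and 0.0707).

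The proximal promoters of these chemokine genes and of IL6 are shown because each holds a match to the kB motif, the sequence bound by NF-kB, in the 120 bases before the RefSeq start (GRCh38.p14, 5′ to 3′ on the strand of the gene). Capitals mark the match.
CXCL5 (chr4:73998678-73998797, minus strand): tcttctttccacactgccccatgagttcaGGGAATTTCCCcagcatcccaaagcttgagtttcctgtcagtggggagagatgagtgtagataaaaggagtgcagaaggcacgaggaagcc
CXCL2 (chr4:74099196-74099315, minus strand): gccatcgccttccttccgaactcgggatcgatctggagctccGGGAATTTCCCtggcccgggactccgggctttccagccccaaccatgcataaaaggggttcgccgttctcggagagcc
CCL20 (chr2:227813722-227813841, plus strand): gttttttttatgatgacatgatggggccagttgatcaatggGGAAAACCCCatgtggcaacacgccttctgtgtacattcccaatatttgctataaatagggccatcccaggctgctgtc
IL6 (chr7:22727080-22727199, plus strand): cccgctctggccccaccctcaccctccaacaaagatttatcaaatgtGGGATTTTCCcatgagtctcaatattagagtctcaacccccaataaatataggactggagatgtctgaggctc
The stretch in capitals is the same in CXCL5 and CXCL2, where matches on both strands overlap, and the match of CCL20 is on the opposite strand. Such a match was found, searching both strands, in 2.49% of 34756 promoters of this length and in 4.12% of the 9038 tested genes with a listed promoter. It was found in 5 of the 7 measured neutrophil chemokines and in 8 of 17 genes of the NF-kB list. A match is a description of the letters and shows no binding here.

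Of the 7 measured neutrophil chemokines, 2 rose and 0 fell, with a median change of 0.28 over the list against 0.01 over all genes. Median pair differences of the list were 0.24, 0.12 and 1.70 for batches A, B and D. CXCL1 read 13.70, 14.23 and 12.28 at 4 d and 14.21, 14.17 and 14.09 at 6 d and its change of 0.75 ± 0.30 was not called (adjusted p = 0.123). Its 4 d and 6 d arrays overlapped because batch B was already at the 6 d level at 4 d. Without the 4 d array of batch B, 4 of the 7 chemokines rose, CXCL1 among them with 1.24; 2 rose without any other single array and with median centring, and 0 in the 6 arrays alone or without batch A. CXCL8 (interleukin-8), the best known of the family, read 14.07, 14.12 and 13.94 at 4 d and 14.17, 14.23 and 14.23 at 6 d, close to the highest value of any probe in the table (14.52), and its 0.17 ± 0.28 was not called (adjusted p = 0.768). Of 9 other chemokines, CCL20 alone was called (2 without the 4 d array of batch B). CCL3, a chemokine for monocytes, gave 0.52 ± 0.25 (adjusted p = 0.193), and 0.84 and called without the 4 d array of batch B.

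**Figure D2:**
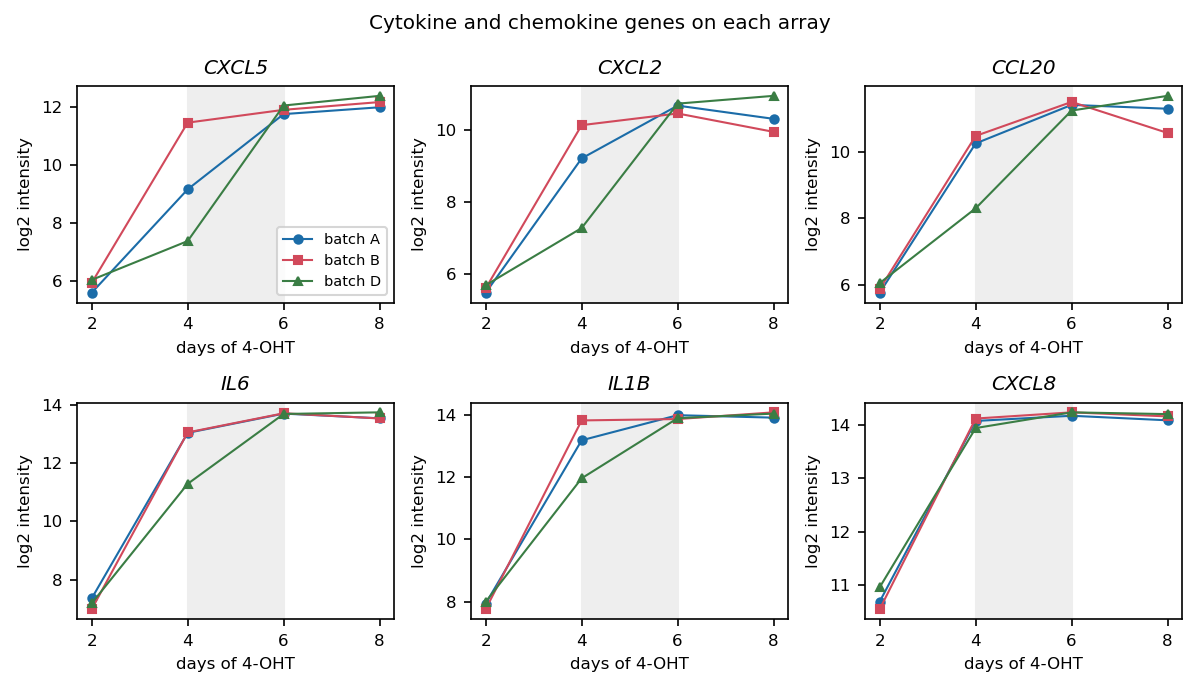
Log2 intensity (y axis) of 6 cytokine and chemokine genes on the arrays of 2, 4, 6 and 8 d of 4-OHT (x axis), with 1 line for each batch and the step from 4 d to 6 d shaded. At 4 d the batches run from 7.38 to 11.45 for CXCL5, and at 6 d from 11.74 to 12.04; CXCL8 is near 14 in every batch at both times.

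Few members of the interleukin-6 family and the interleukin-1 axis were called. IL6, the pleiotropic cytokine of the secretory phenotype, read 13.03, 13.05 and 11.29 at 4 d and 13.69, 13.70 and 13.68 at 6 d. Its 6 d arrays lay between 13.68 and 13.70, above every 4 d array, of which batch D was the lowest. The rise was 1.24 ± 0.28 (adjusted p = 0.00728), and 0.76 without the 4 d array of batch D; the 6 arrays alone (adjusted p = 0.0617), median centring (0.088) or leaving out batch A (0.0651) ended the call. CSF3, which encodes the granulocyte growth factor G-CSF, was the other called member of 13 in the IL6 list and read 7.60, 8.48 and 6.46 at 4 d and 8.36, 8.34 and 8.84 at 6 d. It was above background on 9 of the 24 arrays and gave 1.00 ± 0.27 (adjusted p = 0.023), with pairs of 0.76, −0.13 and 2.37. The pair of batch B went down, and the call was lost without the 4 d array (0.44) or the 6 d array (0.77) of batch D. It was also lost with median centring (0.86, adjusted p = 0.187). The IL6 list had 1 to 3 rising members when single arrays were left out (1 without the 4 d or 6 d array of batch D) and 0 with median centring. In the interleukin-1 axis 2 of 9 members rose, 4 without the 4 d array of batch B, 1 without any of the other 5 arrays and 0 with median centring. IRAK2, a kinase that relays the interleukin-1 receptor signal, read 10.54, 10.64 and 10.01 at 4 d and 11.06, 11.17 and 10.89 at 6 d, with no overlap, and rose by 0.65 ± 0.13 (adjusted p = 0.00306, and 0.264 with median centring). IL1B itself rose by 0.93 ± 0.27 (adjusted p = 0.0348), from 13.18, 13.81 and 11.96 to 13.98, 13.86 and 13.89. Its call was lost without any one of 5 of the 6 arrays, with 0.38 without the 4 d array of batch D and 1.42 without that of batch B. Median centring ended the IL1B call as well (0.82, adjusted p = 0.215). IL1A, the membrane-bound form of interleukin-1, gave 0.27 ± 0.24 and was not called (adjusted p = 0.527); its 4 d array of batch B, at 12.15, was above all 6 d arrays, and without it the change was 0.74 and called.

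Among 20 measured genes of the NF-kB pathway and its feedback, 5 rose and 1 fell (median 0.18). The member that fell was VCAM1, with a fitted change of −0.46 ± 0.13 (adjusted p = 0.0267). It was above background on 2 of 3 arrays at 4 d and 0 of 3 at 6 d. Without the 4 d or the 6 d array of batch B, 0 members fell. Leaving out single arrays gave 2 to 5 rising members, with 2 without the 4 d array of batch D or the 6 d array of batch B, and median centring gave 1. SOD2, the mitochondrial superoxide dismutase and a classic NF-kB target, read 12.15, 12.13 and 11.15 at 4 d and 12.78, 12.77 and 12.76 at 6 d. The 6 d values were alike in the 3 batches and above all 4 d values, the lowest of which was batch D. SOD2 rose by 0.96 ± 0.18 (adjusted p = 0.00136), and its other probe by 0.55; median centring ended the call (adjusted p = 0.0698). Its 4 listed promoters held no kB match in the same window. TNFAIP2, a TNF-induced protein of unsettled function, read 6.71, 6.67 and 6.36 at 4 d and 7.39, 7.28 and 7.09 at 6 d and rose by 0.67 ± 0.11 (adjusted p = 3.30e-04). CEBPD, a C/EBP transcription factor, rose by 0.71 ± 0.20 (adjusted p = 0.0254), a call that was lost with median centring and without the 4 d array of batch D (0.39), the 6 d array of batch A (0.68) or the 6 d array of batch B (0.67). NFKBIZ, a nuclear I-kB protein that helps induce IL6, rose by 0.58 ± 0.16 on its brightest probe (adjusted p = 0.0223). The other NFKBIZ probe gave 0.07, and the call was lost with median centring and without any one of 4 of the 6 arrays, with 0.41 to 0.54.

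Some protease inhibitors and acute-phase genes also rose. Their list was written with earlier results of these data known, so its counts only describe. Of 18 measured genes of that list 6 rose and 0 fell, with a median of 0.30. When single arrays were left out, 4 to 9 rose (9 without the 4 d array of batch B and 4 without that of batch A). With median centring 4 rose, and without all of batch A 1. Of the 6, SERPINB4 and SAA2 were above background on 7 of the 24 arrays, C3 on 8, CST4 on 9, CST1 on 18 and CSTB on 24. SERPINB4, a serpin that inhibits cysteine and serine proteases and is best known from squamous epithelium, read 5.75, 6.74 and 5.94 at 4 d and 8.16, 8.04 and 8.73 at 6 d, and 1 of its 3 arrays at 4 d was above background. Every 6 d array was well above every 4 d array, and the rise of 2.17 ± 0.19, or 4.49-fold, passed the test (adjusted p = 1.90e-07). PI3 (elafin), an inhibitor of neutrophil elastase that was not on the list, read 5.70, 6.75 and 5.67 at 4 d and 7.70, 7.80 and 7.40 at 6 d, again with 1 of 3 arrays above background at 4 d. It was above background on 7 of the 24 arrays and rose by 1.59 ± 0.20 (adjusted p = 2.06e-05), with no overlap. C3, the central complement component, rose by 0.98 ± 0.16 (adjusted p = 4.45e-04), from 6.11, 6.74 and 5.76 to 7.33, 7.46 and 6.76. CST1 and CST4 encode near-identical salivary cystatins, so that their probes may share signal: CST4 rose by 1.00 ± 0.23 and CST1 by 1.13 ± 0.31 (adjusted p = 0.00812 and 0.0232). CST4 was no longer called without the 4 d array of batch A (0.79). CST1 overlapped between the groups through the 4 d array of batch B and was no longer called without the 4 d array of batch A (0.81) or D (0.79), or the 6 d array of batch A (1.07) or B (1.14). Median centring ended the CST1 call as well (0.99, adjusted p = 0.209). Of 15 metalloproteinases and their inhibitors, MMP12, the macrophage elastase, rose and MMP11 (stromelysin-3) fell, and 4 rose without the 4 d array of batch B. MMP12 read 6.52, 6.86 and 6.61 at 4 d and 7.71, 7.66 and 8.32 at 6 d, without overlap, and rose by 1.23 ± 0.20 (adjusted p = 3.45e-04). MMP11 gave −0.65 ± 0.17 (adjusted p = 0.0156) and was no longer called without the 4 d array of batch B (−0.32) or the 6 d array of batch D (−0.58).

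The remaining large rises included signalling molecules and a transcription factor. NDP, which encodes the Wnt-pathway ligand norrin, read 8.05, 7.87 and 7.34 at 4 d and 9.99, 10.03 and 9.37 at 6 d. Its pairs were close together at 1.94, 2.16 and 2.04, and the estimate was 2.04 ± 0.13, a 4.12-fold rise (adjusted p = 8.97e-09). FOXQ1, a forkhead transcription factor, read 8.84, 9.66 and 8.64 at 4 d and 11.22, 11.19 and 10.72 at 6 d and rose by 1.99 ± 0.17 (adjusted p = 1.90e-07). EDN1, the precursor of the vasoconstrictor endothelin-1, read 7.17, 7.24 and 8.50 at 4 d and 9.58, 9.46 and 9.34 at 6 d. The 4 d array of batch D was higher than the other 4 d arrays but lower than all 6 d arrays, and EDN1 rose by 1.82 ± 0.24 (adjusted p = 5.26e-05). SCG5, a secretory granule chaperone, rose by 1.47 ± 0.21, KCNJ2, an inward-rectifier potassium channel, by 1.30 ± 0.13, and DDIT4L, an inhibitor of mTOR signalling, by 1.25 ± 0.18 (adjusted p = 1.03e-04, 1.47e-06 and 1.12e-04). OTUB2, a deubiquitinase, read 7.45, 7.80 and 7.61 at 4 d and 8.94, 8.89 and 8.88 at 6 d and rose by 1.29 ± 0.09 (adjusted p = 1.57e-08). Its other 2 probes rose by 0.49 and 0.58. ESM1, a secreted proteoglycan first described in endothelial cells, rose by 1.29 ± 0.24 (adjusted p = 0.00127). It was 1 of 2 genes that rose among 29 growth factors and binding proteins, of which 3 fell. Without the 4 d array of batch B 5 rose and 2 fell, without the 6 d array of batch A or B 1 rose and 0 fell, and with median centring 1 rose and 1 fell.

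Replication-dependent histone genes, whose messages normally lack a poly(A) tail and peak in S phase, rose in 8 of 14 measured members, and 0 fell. Medians were 0.42, 0.44 and 0.47 in batches A, B and D, and 6 to 8 rose when single arrays were left out. With median centring 2 rose, in the 6 arrays alone 4 and without batch A 3. H2AC20 read 9.25, 9.44 and 9.26 at 4 d and 10.44, 10.19 and 10.22 at 6 d. Every 6 d array was above every 4 d array, and it rose by 0.97 ± 0.11, or 1.95-fold (adjusted p = 8.81e-06). H2AC18 rose by 0.89 ± 0.12, H4C8 by 0.70 ± 0.10 and the linker histone H1-2 by 0.75 ± 0.15 (adjusted p = 7.12e-05, 1.72e-04 and 0.00288). Median centring ended the calls of H2AC18 (0.056) and H1-2 (0.243). Histone genes are close copies of each other, so a probe may read more than 1 of them. Among 52 genes of the G1/S transition and the replication machinery 0 rose and 2 fell, with a median of −0.07; 5 fell without the 4 d array of batch B, 4 without the 6 d array of batch D, 1 without the 4 d array of batch D and 0 without an array of batch A or the 6 d array of batch B.

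Some genes of the lysosomal, autophagy and oxidant response lists rose, but with median centring 0 members of these lists rose. Of 45 lysosomal genes 9 rose and 1 fell (median 0.13). Leaving out single arrays gave 3 to 7 rising genes, with 3 without the 6 d array of batch B, 5 without that of batch A and 6 without the 4 d array of batch A or B. In the 6 arrays alone 1 rose, without batch A 1 and without batch B 3. ATP6V1B2, a subunit of the proton pump that acidifies lysosomes, was between 10.96 and 11.0 at 4 d and between 11.72 and 11.78 at 6 d. The arrays of each group lay close together, with no overlap, and the rise was 0.75 ± 0.07 (adjusted p = 5.69e-07), or 0.59 and not called (adjusted p = 0.143) with median centring. CTSS, the protease cathepsin S, was above background on 9 of the 24 arrays and rose by 0.70 ± 0.13 (adjusted p = 0.0017, and 0.105 with median centring). The member that fell was CTSC, cathepsin C, which activates serine proteases, with −0.63 ± 0.12 on its brightest probe (adjusted p = 0.00209) and −0.14 and −0.50 on its other probes. Of 30 autophagy genes 3 rose and 0 fell, with 0 to 4 rising when single arrays were left out (0 without the 6 d array of batch A or B, 1 without the 4 d array of batch A or D) and 0 with median centring. The largest rise was that of SQSTM1 (p62), the cargo receptor, with 0.69 ± 0.19 (adjusted p = 0.0225). It was no longer called without the 4 d array of batch D (0.62) or the 6 d array of batch A (0.59) or B (0.46). With median centring the SQSTM1 change was 0.47 and not called (adjusted p = 0.443). Of 20 genes of the NRF2, metal and oxidant response 4 rose and 0 fell, with medians of 0.32, 0.52 and 0.03 in batches A, B and D. Without the 6 d array of batch D 8 rose and without all of batch D 10, without batch A or batch B 1, and with median centring 0. SRXN1, which repairs oxidized peroxiredoxins, read 9.24, 9.10 and 9.35 at 4 d and 9.95, 10.05 and 9.60 at 6 d and rose by 0.63 ± 0.10 (adjusted p = 4.72e-04). TXN, thioredoxin, rose by 0.41 ± 0.08 and its other 2 probes by 0.41 and 0.46, and the metallothionein MT1X rose by 0.64 ± 0.13 (adjusted p = 0.0032 and 0.00339). With median centring the changes were 0.53 for SRXN1, 0.18 for TXN and 0.50 for MT1X (adjusted p = 0.264, 0.787 and 0.379).

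**Figure D3:**
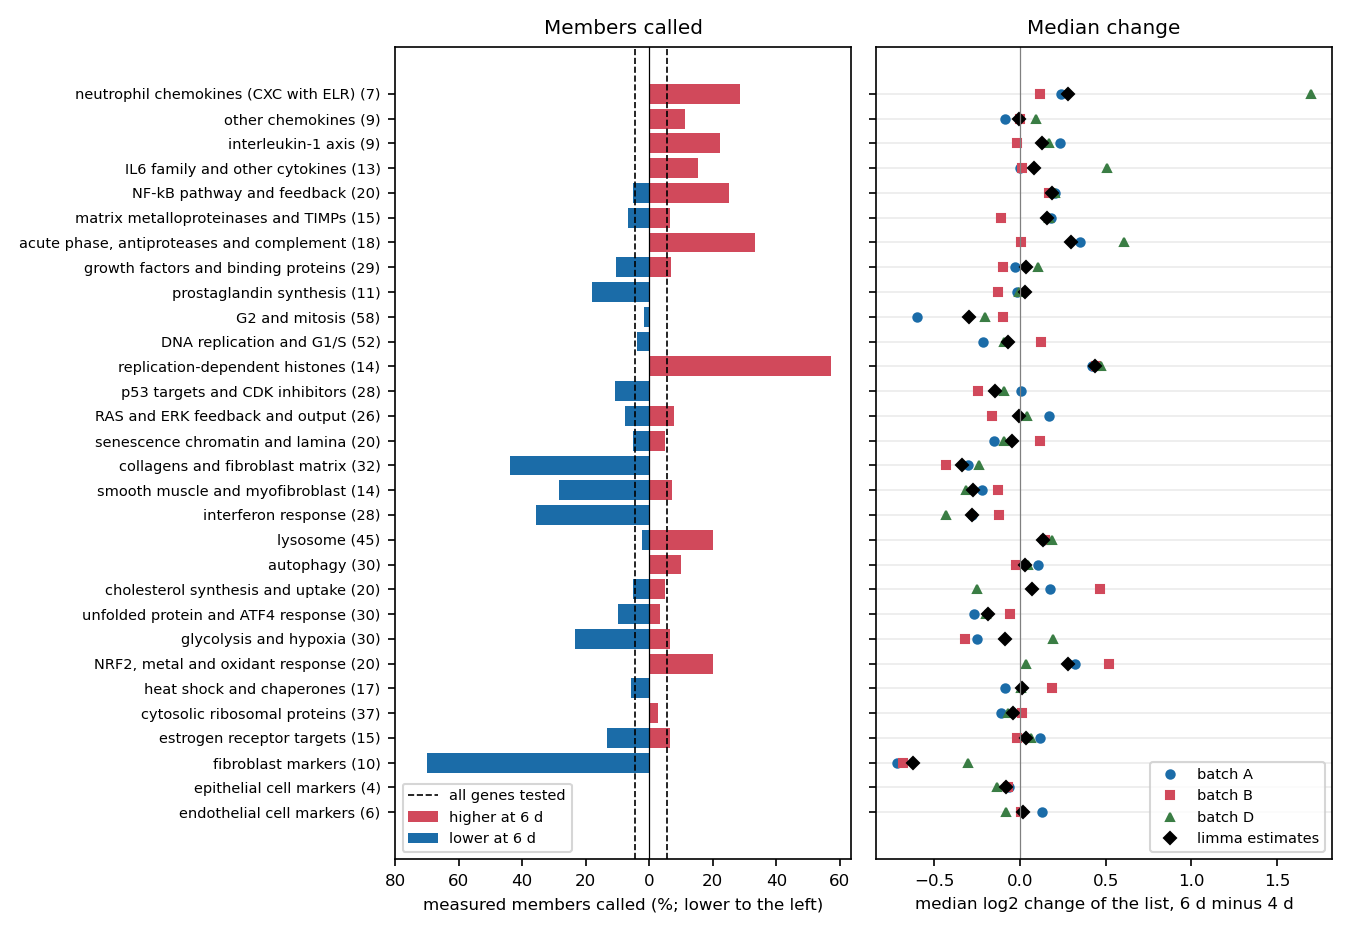
Left, the percent of measured members of each gene list (number in brackets) that were called higher (to the right) or lower (to the left) at 6 d, with dashed lines at the shares over all genes tested, 5.72% and 4.47%. Right, the median log2 change of each list (x axis) in single batches and from the limma estimates; histones and fibroblast markers lie away from 0 in every batch, and neutrophil chemokines do so mainly in batch D.

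Many matrix and marker genes of fibroblasts fell. Of 32 measured collagens and matrix genes 14 fell and 0 rose, with a median of −0.34 and single-batch medians of −0.30, −0.43 and −0.24; without the 4 d array of batch B 10 fell and 2 rose, without the 6 d array of batch B 8 fell and 0 rose, with median centring 9 fell and without batch A 4. POSTN (periostin), a matrix protein of activated fibroblasts, read 11.70, 11.86 and 11.78 at 4 d and 10.51, 10.42 and 10.90 at 6 d. All 6 d arrays were below all 4 d arrays, and POSTN fell by 1.17 ± 0.19, a 2.24-fold change (adjusted p = 4.57e-04). FBLN1 (fibulin-1) read 10.30, 9.42 and 10.34 at 4 d and 8.28, 8.38 and 9.08 at 6 d and changed by −1.44 ± 0.20 (adjusted p = 7.29e-05), with −0.81 and −0.71 on its other probes. VCAN (versican), a large matrix proteoglycan, changed by −1.06 ± 0.14, and COL16A1 by −0.93 ± 0.16 (adjusted p = 6.15e-05 and 6.97e-04). ADAMTS4, a protease that cleaves such proteoglycans, read 7.29, 7.38 and 7.13 at 4 d and 6.07, 5.89 and 6.22 at 6 d, and 1 of its 3 arrays at 6 d was above background. It fell by 1.21 ± 0.11 (adjusted p = 5.71e-07), without overlap. Without all of batch A the calls of POSTN (adjusted p = 0.0509) and COL16A1 (0.104) were lost.

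Of the 10 genes fixed as fibroblast markers, which share 5 genes with the matrix list, 7 fell and 0 rose, and 5 to 7 fell when single arrays were left out or with median centring; without the 4 d array of batch B 6 fell and 1 rose. Their summed linear intensity was 45240 to 47660 on the 4 d arrays and 35980 to 37770 on the 6 d arrays. In bulk RNA, fewer cells of a type and less RNA of a gene per cell cannot be told apart. PDGFRB, the receptor for platelet-derived growth factor B, read 11.89, 12.21 and 11.80 at 4 d and 10.97, 10.92 and 10.59 at 6 d and changed by −1.14 ± 0.15 (adjusted p = 5.40e-05). PDGFRA, its partner receptor, read 10.09, 10.45 and 9.73 at 4 d and 9.03, 9.24 and 9.33 at 6 d and changed by −0.89 ± 0.18 (adjusted p = 0.0028). Neither receptor overlapped between the groups. COL1A2 and COL3A1, chains of the main fibrillar collagens, changed by −0.67 ± 0.16 and −0.63 ± 0.15 (adjusted p = 0.00775 and 0.00906). The call of COL1A2 was lost without the 6 d array of batch B (−0.61), in the 6 arrays alone (adjusted p = 0.0507) and without all of batch A (0.25) or B (0.141). That of COL3A1 was lost without the 4 d array of batch B (−0.48), with median centring and without all of batch A (adjusted p = 0.189) or B (0.0502). The call of PDGFRA was lost without batch A as well (adjusted p = 0.167).

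Contractile genes of myofibroblasts fell in part: 4 of 14 measured genes fell and 1 rose. Without the 4 d array of batch B 6 fell, without the 6 d array of batch B 2, and without the 4 d array of batch D or the 6 d array of batch A 1, as with median centring. ACTA2, smooth muscle actin, read 11.97, 11.65 and 12.27 at 4 d and 10.68, 10.75 and 11.04 at 6 d. The 6 d arrays were all below the 4 d arrays, and ACTA2 changed by −1.14 ± 0.14 (adjusted p = 1.20e-05). TAGLN (transgelin), an actin-binding protein, read 11.98, 10.84 and 12.47 at 4 d and 10.66, 10.69 and 11.40 at 6 d and overlapped between the groups. Its change of −0.85 ± 0.23 (adjusted p = 0.0212) was −0.53 and not called without the 4 d array of batch D, and −1.30 without that of batch B. The TAGLN call was also lost without the array of batch A at 4 d (−0.71) or 6 d (−0.71), or that of batch B at 6 d (−0.80). ANKRD1, a mechanically induced muscle protein, went the other way and rose by 0.94 ± 0.19 (adjusted p = 0.00244). Its pairs were 1.39, 1.34 and 0.10, the smallest in batch D, and the call was lost with median centring (adjusted p = 0.0773), in the 6 arrays alone (0.0641) and without batch A (0.181) or batch B (0.109).

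Other large falls are genes of varied roles. TMEM119, a membrane protein known from osteoblasts and microglia, read 7.71, 7.26 and 8.23 at 4 d and 6.15, 6.30 and 6.10 at 6 d and changed by −1.55 ± 0.17 (adjusted p = 4.60e-06). LXN, the carboxypeptidase inhibitor latexin, read 10.88, 10.78 and 11.07 at 4 d and 9.22, 9.29 and 9.63 at 6 d, and its pairs of −1.66, −1.48 and −1.44 gave −1.53 ± 0.11 (adjusted p = 1.58e-08). ALDH1A3, an enzyme of retinoic acid synthesis, read 8.84, 9.23 and 9.24 at 4 d and 7.39, 7.58 and 8.00 at 6 d and changed by −1.45 ± 0.13 (adjusted p = 2.40e-07). In none of these did the groups overlap. GABRB1, a subunit of GABA receptors, changed by −1.57 ± 0.14 and by −0.58 on its other probe, and the heparan sulfate proteoglycan GPC6 by −1.29 ± 0.15 and −0.57 (adjusted p = 2.30e-07 and 5.90e-06 for the brightest probes). CHN1, a GTPase-activating protein for RAC, changed by −1.40 ± 0.14, SLFN11, which blocks stressed replication forks, by −1.34 ± 0.13, and the neuronal regeneration protein NREP by −1.29 ± 0.15 (adjusted p = 1.57e-06, 9.99e-07 and 8.92e-06). For the transcription factor DACH1 the probes disagreed: the brightest fell by 1.49 ± 0.13 (adjusted p = 1.62e-07), and the other gave −0.08. THRA, a thyroid hormone receptor, and HEYL, a Notch target, fell most in batch B. THRA read 8.21, 9.72 and 8.35 at 4 d and 7.62, 7.34 and 7.66 at 6 d and changed by −1.22 ± 0.25 (adjusted p = 0.00283), or by −0.69 without the 4 d array of batch B. HEYL was above background on 4 of the 24 arrays, with 3 of 3 at 4 d and 0 of 3 at 6 d, so it entered the test through its 4 d arrays. It fell at least 2.00-fold (adjusted p = 0.00136). The fitted change of HEYL was −1.18 ± 0.22, and −0.69 without the 4 d array of batch B. All 24 arrays enter that standard error, and the standard deviation of the 4 d arrays alone was 0.81.

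**Figure D4:**
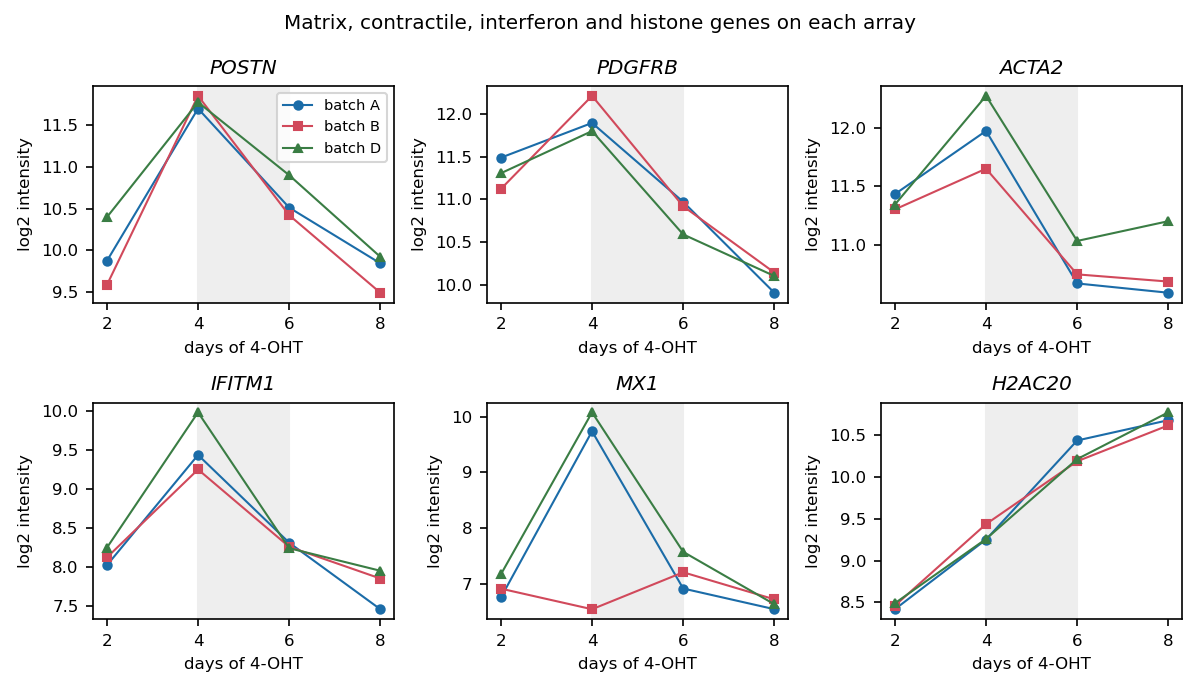
Log2 intensity (y axis) of 6 genes on the arrays of 2, 4, 6 and 8 d of 4-OHT (x axis), with 1 line for each batch and the step from 4 d to 6 d shaded. POSTN, PDGFRB, ACTA2 and IFITM1 go down between 4 d and 6 d in every batch, MX1 goes down in batches A and D only, and H2AC20 goes up in every batch.

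Interferon-stimulated genes, which encode antiviral proteins, fell in part. Of 28 measured genes 10 fell and 0 rose, with a median of −0.28 and single-batch medians of −0.28, −0.12 and −0.43, and 7 to 12 fell when single arrays were left out. With median centring 5 fell, in the 6 arrays alone 4 and without batch A 2. The 120 bases before the start of IFITM1, IFIT1 and IFI44 are shown because they hold the core of the interferon-stimulated response element, which is GAAA, any 2 bases and GAAA on either strand, in capitals (RefSeq, GRCh38.p14, 5′ to 3′ on the strand of the gene).
IFITM1 (chr11:313920-314039, plus strand): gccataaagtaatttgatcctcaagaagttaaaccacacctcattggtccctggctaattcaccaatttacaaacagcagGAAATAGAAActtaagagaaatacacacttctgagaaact
IFIT1 (chr10:89392503-89392622, plus strand): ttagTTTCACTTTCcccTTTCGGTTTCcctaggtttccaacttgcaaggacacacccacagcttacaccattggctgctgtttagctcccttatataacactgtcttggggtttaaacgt
IFI44 (chr1:78649711-78649830, plus strand): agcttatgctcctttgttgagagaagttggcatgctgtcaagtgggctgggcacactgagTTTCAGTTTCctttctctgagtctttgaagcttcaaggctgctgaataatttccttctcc
In IFIT1 there are 2 matches, both on the opposite strand, as is that of IFI44, for which RefSeq lists 2 starts. The core was found in 10 of 23 interferon genes with a listed promoter, in 1.55% of tested genes and in 1.39% of all promoters. ISG15, not shown, held 2 matches and IRF9 held 0. Here too a match describes the letters and shows no binding.

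IFITM1, a membrane protein that blocks virus entry, read 9.43, 9.25 and 9.98 at 4 d and 8.31, 8.26 and 8.24 at 6 d. All 6 d arrays were below all 4 d arrays, and it changed by −1.28 ± 0.15 (adjusted p = 7.47e-06). IFI44 read 7.96, 7.76 and 8.37 at 4 d and 7.02, 7.22 and 7.58 at 6 d, also without overlap, and changed by −0.75 ± 0.14 (adjusted p = 0.00136). The IFI44 call was lost without all of batch A (adjusted p = 0.0979). IFIT1, which binds foreign RNA caps, read 7.35, 5.77 and 7.73 at 4 d and 5.80, 5.78 and 6.09 at 6 d, and was above background on the 4 d arrays of batches A and D and on 0 of 3 arrays at 6 d. Its mean fell at least 1.79-fold (adjusted p = 0.0058), with an overlap through the low 4 d array of batch B. The pairs were −1.55, 0.01 and −1.65, so there was no fall in batch B. The IFIT1 call was lost in the 6 arrays alone (adjusted p = 0.0789) and without all of batch A (0.263) or batch D (0.0692). MX1, a GTPase against viruses, read 9.74, 6.54 and 10.08 at 4 d and 6.91, 7.21 and 7.57 at 6 d. At 4 d it was high in batches A and D and low in batch B, where it went up by 0.66 to 6 d. The pooled MX1 change of −1.56 ± 0.47 was called (adjusted p = 0.0401) but lost without any one of the other 5 arrays, and was −2.60 without the 4 d array of batch B.

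Few cell cycle genes were called. Among the 58 measured mitotic genes 1 fell and 0 rose, with a median of −0.29 and single-batch medians of −0.60, −0.10 and −0.21 (A, B, D). The count depended on single arrays: 16 fell without the 4 d array of batch B, 25 without the 6 d array of batch D and 19 without all of batch D, and 0 without the 6 d array of batch B or with median centring. PTTG1 (securin), the called member, read 8.51, 8.41 and 8.42 at 4 d and 7.78, 7.66 and 8.07 at 6 d and changed by −0.61 ± 0.15 (adjusted p = 0.0104), a call lost without the 6 d array of batch B (−0.51). ASPM, a spindle protein, read 7.42, 6.81 and 7.91 at 4 d and 6.07, 6.15 and 7.46 at 6 d and gave −0.82 ± 0.31 (adjusted p = 0.103); without the 4 d array of batch B (−1.16) or the 6 d array of batch D (−1.35) it was called. MKI67, the proliferation marker, was above background on 1 of 3 arrays at each time and gave 0.04 ± 0.11 (adjusted p = 0.88). Of 28 p53 targets and inhibitors of cyclin-dependent kinases 3 fell and 0 rose, with 1 to 4 falling when single arrays were left out (1 without the 4 d or 6 d array of batch B) and 1 with median centring. CDKN1A (p21) gave 0.05 ± 0.12 and CDKN2A (p16 and ARF) −0.15 ± 0.18, and neither was called (adjusted p = 0.843 and 0.677). CDKN2B (p15) fell by 0.76 ± 0.18 on its brightest probe (adjusted p = 0.00758), from 9.76, 10.13 and 9.89 to 9.13, 9.31 and 9.08, while its other probe gave −0.11. Without the 4 d array of batch B (−0.58) or the 6 d array of batch D (−0.56) it was not called. Of 20 genes of senescent chromatin and the lamina 1 rose and 1 fell. HMGA2, a chromatin protein of senescence foci, rose by 0.46 ± 0.10 (adjusted p = 0.0059). The call was lost with median centring (0.388), without the replicate block (0.0526), in the 6 arrays alone (0.103) and without batch A (0.227). LMNB1 (lamin B1), which is known to be lost in senescence, gave −0.19 ± 0.23 (adjusted p = 0.664) with overlapping arrays.

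Among 26 genes of RAS and ERK output and feedback 2 rose and 2 fell, with 2 rising and 1 to 3 falling when single arrays were left out, and 1 of each with median centring. DUSP4, a phosphatase that switches off ERK, read 7.81, 8.40 and 7.56 at 4 d and 9.13, 9.25 and 8.83 at 6 d and rose by 1.15 ± 0.14 on its brightest probe (adjusted p = 1.41e-05), with 0.14 on the other. MYC read 9.75, 9.43 and 9.56 at 4 d and 10.22, 10.14 and 10.14 at 6 d and rose by 0.59 ± 0.10 (adjusted p = 6.88e-04), without overlap, though not past the threshold with median centring (0.262). SPRY1, an inhibitor of receptor signalling to RAS, changed by −0.56 ± 0.13 and by −0.82 on its other probe (adjusted p = 0.00738 for the brightest, and 0.0885 without the replicate block).

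Of 30 genes of glycolysis and hypoxia 7 fell and 2 rose. Without the 4 d array of batch B 3 fell and 3 rose, without that of batch A 4 fell, without the 6 d array of batch A or B 2 fell, without all of batch D 11 fell, and with median centring 1 fell and 0 rose. SLC2A3, the glucose transporter GLUT3, read 11.91, 12.12 and 11.77 at 4 d and 11.22, 11.23 and 10.96 at 6 d and changed by −0.79 ± 0.10 (adjusted p = 2.70e-05). CA12, a membrane carbonic anhydrase, rose by 0.72 ± 0.14, and ADM, the vasodilator adrenomedullin, by 0.72 ± 0.11 (adjusted p = 0.00148 and 3.29e-04, and 0.0747 and 0.306 with median centring). Of 30 genes of the unfolded protein and ATF4 response 3 fell and 1 rose, with 1 to 4 falling and 1 to 3 rising when single arrays were left out. HSPA5 (BiP), the main chaperone of the endoplasmic reticulum, read 10.99, 10.51 and 10.75 at 4 d and 9.96, 9.92 and 10.03 at 6 d and changed by −0.78 ± 0.13, without overlap (adjusted p = 6.54e-04). PPP1R15A (GADD34), which restores translation after stress, rose by 0.64 ± 0.13 (adjusted p = 0.00271), or by 0.40 without the 4 d array of batch B, and was not called with median centring (0.373) or in the 6 arrays alone (0.0768). Of 20 cholesterol genes 1 rose and 1 fell (4 rose without the 4 d array and 6 without the 6 d array of batch D), of 17 heat shock genes 0 rose and 1 fell, and of 37 cytosolic ribosomal protein genes 1 rose and 0 fell. In prostaglandin synthesis 0 of 11 genes rose and 2 fell, with 1 or 2 falling when single arrays were left out. PTGS1 (cyclooxygenase-1) changed by −0.94 ± 0.14 on its brightest probe (adjusted p = 2.41e-04) and by −0.29 on the other. Of 15 estrogen receptor target genes, listed because 4-OHT binds that receptor, 1 rose and 2 fell. Epithelial, endothelial and immune marker genes had 0 called members of 4, 6 and 1 tested.

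The next step, from 6 d to 8 d, had 190 called genes (78 higher, 112 lower), and the one before, from 2 d to 4 d, had 4064. These steps share arrays with the one described, so their values are only set side by side. From 2 d to 4 d, CXCL5 rose by 3.47, CCL20 by 3.78 and IL6 by 5.27, all called (adjusted p = 1.40e-05, 3.90e-08 and 4.19e-11). These rises were larger than those from 4 d to 6 d. From 6 d to 8 d, CXCL5 changed by 0.28, CCL20 by −0.20 and IL6 by −0.09 (adjusted p = 0.888, 0.879 and 0.936), none of them called. In that next step PI3 rose by 1.31 and MMP12 by 1.10, and COL3A1 and GPC6 changed by −1.35 and −1.20, all called (adjusted p = 6.95e-04, 0.00351, 2.49e-05 and 7.21e-05). From 2 d to 4 d the neutrophil chemokines had a median change of 3.31 with 5 of 7 called higher, and from 6 d to 8 d a median of −0.06 with 0 called. The collagens and matrix genes had medians of 0.45, −0.34 and −0.24 in the 3 steps, with 17, 0 and 1 called higher and 5, 14 and 8 called lower. For the interferon list the medians were 0.51, −0.28 and −0.17.

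The difference between the change from 4 d to 6 d and that from 6 d to 8 d was itself tested in the same limma model and was called for 31 genes, 0.283% of those tested. The 6 d arrays enter both steps with opposite sign, and the count rested on them: without the 6 d array of batch A it was 2 and without that of batch B 1, while without that of batch D it was 111 and without the 4 d array of batch B 95. Of the 31 genes, 20 changed more upwards in the first step and 11 more downwards, and 22 were called in the first step and not in the second. NDP rose by 2.04 and then by 0.52, a difference of 1.52 ± 0.23 (adjusted p = 0.0035). ATP6V1B2 rose by 0.75 and then changed by −0.01 (difference 0.76 ± 0.12, adjusted p = 0.0057). ACTA2 changed by −1.14 and then by 0.01 (difference −1.15 ± 0.24, adjusted p = 0.0352). In 5 genes both steps were called, in opposite directions. HSD11B1, which forms active cortisol, rose by 0.82 and then changed by −0.77, and CA12 rose by 0.72 and then changed by −0.59 (adjusted p of the difference = 0.00448 and 0.0115). HSD11B1 and the following genes were picked after their values were seen. ODC1, the first enzyme of polyamine synthesis, rose by 1.18 and then gave −0.04, and GPNMB, a lysosomal glycoprotein, rose by 1.21 and then gave 0.04 (adjusted p of the difference = 0.00269 and 0.0338). The matrix proteoglycan LUM (lumican) gave 0.38, which was not called, and then changed by −1.13 (adjusted p of the difference = 0.0076).

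**Figure D5:**
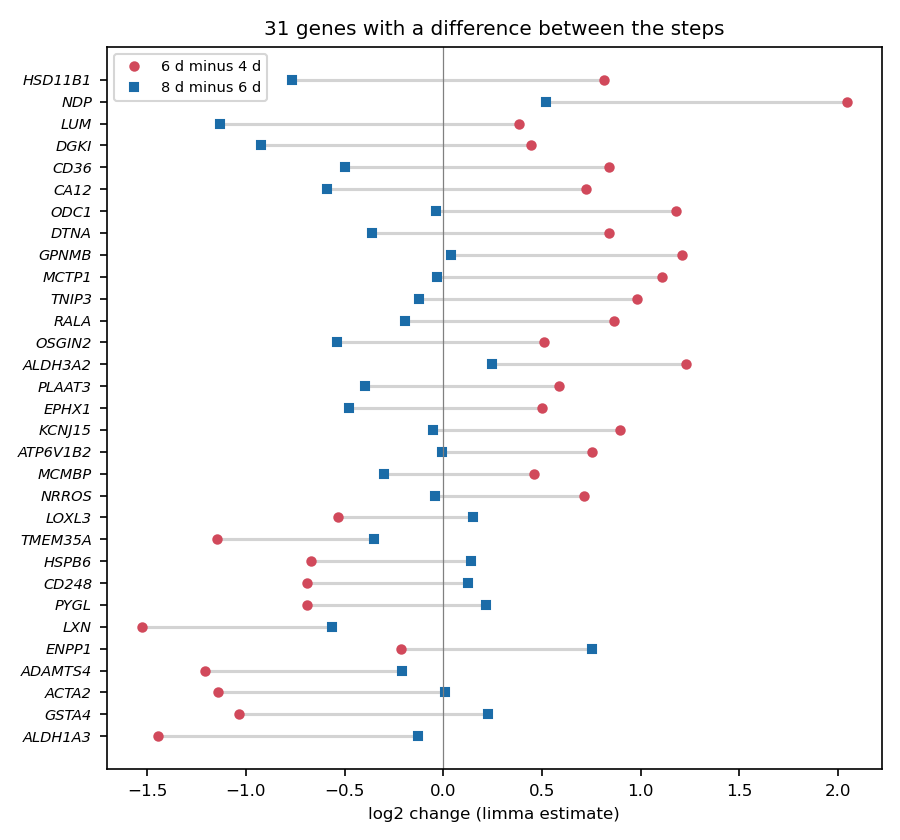
Log2 change (x axis, limma estimates) from 4 d to 6 d (circles) and from 6 d to 8 d (squares) of the 31 genes for which the difference between the steps was called. The squares lie between −1.13 and 0.75, and most are nearer to 0 than the circle of the same gene.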

How the data were processed

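RNA from 24 samples was labelled and hybridised to Illumina human-6 v2 BeadChips, per the labels' protocols. The deposited table holds log2 intensities; how the authors normalized them was not given in the sources used here, and they differed from a quantile normalization of the deposited array values by a median of 0.00274. Groups and batch letters were taken from the labels, which call the batches biological replicates, so the letters pair the arrays. Residuals of same-letter 4 d and 6 d arrays correlated at −0.10, 0.09 and 0.23 in A, B and D.

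A probe counted as above background where a model of each array's values below its mode gave a probability under 0.01, and was kept if so on at least 3 arrays. Probes were named from the platform annotation through Entrez IDs (99.85% matched; 23687 probes with 1 symbol, 35 with several, 24979 with none), and each gene was read from its brightest kept probe (1204 genes had several). Where a gene was above background on 0 arrays of its dimmer group, the fold is a lower bound, taken against the dimmest probe still above background on those arrays. limma 3.58.1 (R 4.3.3) was fitted to 24 arrays with 8 time means and the batch as a block (14 residual degrees of freedom). On simulated data for this comparison, 200 of 10967 genes were changed, 100 of them by 1 on the log2 scale and 100 by 0.5. Of these, 97% and 64% were called, and 6.94% of calls were false. Fewer genes were changed there than the 1117 called in the data, and the percent recovered depends on that number.

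Gene lists were written from general knowledge, and they, the named genes and the comparison were chosen with earlier results of these data known. Named are the 15 largest called rises and falls that moved alike in all pairs and were above background on all arrays of a group, up to 4 called members of each list, and a fixed set of senescence genes; not every one is printed. The number of arrays limits the precision. Alternatives were a normexp background correction, median centring, other filters, probe means, no replicate block, the 6 arrays alone, array weights, another eBayes setting and leaving out arrays.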

Additional observations from a re-analysis of the deposited data

Results flagged for a closer look

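For 7 of the named genes the change from 4 d to 6 d differed from that from 6 d to 8 d by the test of the difference itself (limma, adjusted over all genes). It was larger upwards in the first step by 1.52 ± 0.23 (SE, log2) for NDP, 1.31 ± 0.24 for CA12 and 0.76 ± 0.12 for ATP6V1B2 (adjusted p = 0.0035, 0.0115 and 0.0057). It was larger downwards for ALDH1A3 (−1.32 ± 0.22), ACTA2 (−1.15 ± 0.24), ADAMTS4 (−0.997 ± 0.20) and LXN (−0.96 ± 0.19), with adjusted p = 0.00615, 0.0352, 0.0278 and 0.0268. All moved the same way in all 3 pairs from 4 d to 6 d. The 6 d arrays are shared by both steps, and whether their own deviation plays a part was not tested. Groups of 3 arrays are too small for a test of single outlying arrays.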

How the results depend on the processing

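Counts of called genes (main: 1117, with 627 higher and 490 lower, and 31 with a difference between steps) were within 1.5 times of these under normexp, the other filters, probe means, the quantile normalization made here and another eBayes setting. Without the replicate block 1070 genes were called, and the difference between steps in 19. Median centring gave 232 (51 higher, 181 lower, 0 between steps; median of all genes −0.08). The 6 arrays alone with the replicate block gave 381 (170 and 211), and array weights 3028 (1616 and 1412, 1045 between steps); on these 6 arrays the weights ran from 0.181 for the 4 d array of batch B to 3.21 for that of batch A, and their estimation stopped early. Leaving out 1 array or 1 batch gave 132 to 1665 called genes, 60 to 927 higher and 72 to 738 lower, and 0 to 238 between steps. The lowest counts came without all arrays of batch A, where 62 of the 99 called named genes no longer passed. Among them were IRAK2, TNFAIP2, C3, ESM1, DDIT4L, SRXN1, IFI44 and HSPA5 (adjusted p = 0.0945, 0.058, 0.0885, 0.0566, 0.0521, 0.0902, 0.0979 and 0.0625). Single arrays that moved the count by over 1.5 times were those of batches A (645) and B (532) at 6 d. At the unadjusted level p was under 0.05 for 2746 genes. No named and called gene changed direction under any of the 19 alternatives; 31 of the 99 called named genes passed in all of them, and 23 of the 30 largest rises and falls. The causes were not tested. With 3 arrays per time, changes near 0.5 on the log2 scale can be missed, as some were in the simulation.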
